A study of Mus musculus with 12 samples.

Results

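The genes described here encode collagen chains, laminin chains and integrin subunits, the proteins that build the extracellular matrix and the receptors that bind cells to it. Members were all genes whose symbol starts with Col followed by a number, or with Lama, Lamb, Lamc, Itga or Itgb, in the platform annotation of the array. This gave 80 genes with 181 probes, of 19057 named genes and 45281 probes in the series. The set held 41 collagen genes, 26 integrin genes and 9 laminin genes. The other 4 genes, Itgb1bp1, Itgb1bp2, Itgb3bp and Itgbl1, are named for an integrin and are not receptor subunits.

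Illumina bead arrays, 1 per sample, had measured messenger RNA of the hippocampus in C57BL/6J males aged 3 weeks. The ethanol group (EtOH, 6 arrays) came from dams that chose to drink ethanol at 10% between 0.5 and 8.5 days post-coitum, and 6 arrays are labelled Control, with nothing further said of what their dams were given. The labels name no genetic change in either group. They name neither litters nor dams, so a p-value here reflects the spread between samples that may be technical or shared by littermates. Titles carry 1 of 2 long numbers, read here as those of beadchips, with 3 arrays of each group under each. As a check of the tissue, 8 of 8 tested markers of hippocampal neurons were detected on all 12 arrays.

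Collagens are trimers of alpha chains. Type IV chains form the sheet-like network of basement membranes, on which laminins, each made of an alpha, a beta and a gamma chain, form another network. Fibrillar types such as I, III and V give connective tissue its tensile strength, and the short-chain type VIII forms open lattices. Integrins pair an alpha with a beta subunit in the cell membrane and bind laminins, collagens or proteins with an RGD motif. In the brain these proteins lie mainly around vessels, in the meninges and under the epithelium of the choroid plexus, the fringe of tissue that makes cerebrospinal fluid and lies beside the hippocampus in the lateral ventricle.

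The sequences below are windows at the start sites of Col8a1, Col8a2, Col4a5 and Col4a4, genes on which the first result turns. A stretch that ties the main type IV chains to each other follows them. The windows of Col18a1 and Itgb5, which also belong to that result, are not printed. All windows are RefSeq promoter windows of the mouse build GRCm38.p6. Each has 250 bases before and 50 bases after the gene start, 300 in all, and 59 of the 80 genes had one. The letters GGGCGG, the GC box that Sp1-type factors bind, were searched on both strands and are shown in capitals as GGGCGG or as its reverse complement CCGCCC. Col4a1 and Col4a2 start head to head on chromosome 8, and the stretch of 78 bases that belongs to both of their windows is given on its + strand.
Col8a1, chr16:57754688-57754987, - strand: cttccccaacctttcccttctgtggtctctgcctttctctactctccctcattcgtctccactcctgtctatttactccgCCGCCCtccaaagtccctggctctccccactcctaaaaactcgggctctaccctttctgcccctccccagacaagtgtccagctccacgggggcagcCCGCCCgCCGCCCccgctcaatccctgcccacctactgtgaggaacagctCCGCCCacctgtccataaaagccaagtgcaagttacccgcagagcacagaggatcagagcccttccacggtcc
Col8a2, chr4:126286544-126286843, + strand: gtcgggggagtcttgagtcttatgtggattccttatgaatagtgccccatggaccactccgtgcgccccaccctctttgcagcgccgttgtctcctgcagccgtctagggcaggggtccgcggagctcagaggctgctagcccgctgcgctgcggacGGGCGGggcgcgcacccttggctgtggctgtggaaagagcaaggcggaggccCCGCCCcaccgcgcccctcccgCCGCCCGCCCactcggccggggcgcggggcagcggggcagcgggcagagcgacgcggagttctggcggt
Col4a5, chrX:141475169-141475468, + strand: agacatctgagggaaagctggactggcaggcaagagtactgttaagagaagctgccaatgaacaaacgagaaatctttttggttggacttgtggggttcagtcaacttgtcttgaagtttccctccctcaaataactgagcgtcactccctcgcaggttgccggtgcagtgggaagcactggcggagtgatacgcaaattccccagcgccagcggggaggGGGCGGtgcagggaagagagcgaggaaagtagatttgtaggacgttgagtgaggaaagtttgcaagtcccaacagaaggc
Col4a4, chr1:82586800-82587099, - strand: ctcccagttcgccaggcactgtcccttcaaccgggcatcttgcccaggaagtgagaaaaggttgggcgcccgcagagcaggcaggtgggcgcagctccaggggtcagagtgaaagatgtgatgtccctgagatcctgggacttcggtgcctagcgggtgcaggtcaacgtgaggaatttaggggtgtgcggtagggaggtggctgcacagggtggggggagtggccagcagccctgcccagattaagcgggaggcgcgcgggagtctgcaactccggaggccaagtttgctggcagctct
Col4a1 and Col4a2, shared stretch, chr8:11312777-11312854, + strand: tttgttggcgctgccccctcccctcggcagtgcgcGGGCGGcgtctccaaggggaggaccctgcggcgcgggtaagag

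In the Col8a2 window 2 of its 4 GC boxes overlap in the run CCGCCCGCCC. The windows of the set held a median of 12 CG pairs each, against 7 over all windows. The GC box occurred in 36 of 65 windows of the set (55.4%), against 35.7% of all 32851 windows of the same length. Of the 7 windows of the 6 genes that divided the arrays by Ttr below, 5 held it, and the Col4a4 window held none. The TATA box, TATAAA, occurred in 7.69% of the set's windows against 13.6% of all, and the OTX motif, TAATCC, in 3.08% against 7.06%. Neither occurred in the 7 windows of those 6 genes. A match describes letters in the window and is not evidence of binding.

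Signals are given as normalized log2 values after background correction with an offset of 16. A probe counted as detected on an array at a detection p-value under 0.05, and probes detected on at least 6 of 12 arrays were tested, 21263 in all. The brightest tested probe stands for its gene. Of the 80 genes, 55 had a tested probe (75 probes), and 36 had a probe detected on all 12 arrays. The tested genes were 28 of 41 collagens, 16 of 26 integrins, 8 of 9 laminins and 3 of the 4 named for an integrin. The other 25 genes had no tested probe, and 10 of them were detected on 0 arrays, among them the leukocyte subunit Itgax and the platelet subunit Itgb3. Itgam and Itgb2, which form the main beta-2 integrin of microglia, were each detected on 1 of 12 arrays by their single probe, Lama4, a laminin chain of vessels, on at most 1 array by any of its 5 probes, and Col4a3 on 3 arrays.

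A set of 4 arrays stood apart in choroid plexus content. Ttr, which encodes transthyretin, a secretory product of choroid plexus epithelium, had log2 signals of 10.08 and 9.62 in EtOH replicates 1 and 3 and of 11.00 and 8.33 in Control replicates 1 and 4. On the other 8 arrays Ttr ran from 15.56 to 15.81, with a median of 15.75. The split took 2 arrays from each group, and 3 of the 4 lay on beadchip 1. All 14 tested genes of the choroid plexus list were below on the same 4 arrays, Ttr by the choice of the split. Of these 14, 5 were detected on all 12 arrays, Ttr included. Steap1, Cldn2, F5, Folr1 and Kcne2 were detected on 8 arrays, so they were tested only through the arrays on which they were high. The number of detected probes did not set these arrays apart, at 20804 to 21552 on the 4 and 20910 to 21672 on the other 8. Because the arrays form separate clusters, no correlation with Ttr is given. A gene is said to follow Ttr here where its 4 values on the low arrays all lie below the other 8, which is a description without a test. In whole tissue, fewer cells of a type and less RNA per cell cannot be told apart.

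Of the 55 tested genes, 6 (10.9%) followed Ttr, where 2.34% of all tested probes did. They were Col8a1, Col8a2, Col18a1, Col4a5, Col4a4 and Itgb5. No tested gene of the set had all 4 arrays above the other 8, against 1.06% of all probes. The brightest probes of Col8a1 and Col4a4 were detected on 0 of the 4 low arrays and on 8 of 8 others. These probes were tested only through the arrays on which they were high. By probe, 7 of 75 followed Ttr. Among the 36 genes detected on all 12 arrays 4 followed Ttr (Col8a2, Col18a1, Col4a5 and Itgb5), against 2.22% of probes detected on all 12 arrays. Without a detection filter 6 of 80 did, against 1.28% of all probes.

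Both type VIII chains made the widest divisions. Col8a1 had log2 signals of 5.07 and 5.22 in EtOH replicates 1 and 3 and of 4.72 and 5.30 in Control replicates 1 and 4. On the other 8 arrays it ran from 8.71 to 9.42 with a median of 9.13, so a gap of 3.41 on the log2 scale lay between the sets. This brightest probe of Col8a1 was not detected on the 4 arrays, so its level there is only a bound. The bound took the dimmest detected signal of each of the 4 arrays, or the probe's own value where higher. By it, this probe was at least 12.3-fold lower there on the offset scale. A further tested probe of Col8a1 gave 5.21 to 5.68 on the 4 arrays and 8.34 to 8.94 on the other 8, again with no overlap. That probe was detected on 2 of the 4 arrays and on 8 of the other 8. Col8a2, its partner chain in type VIII lattices, stood at 6.64 and 5.90 in the EtOH arrays of the low set and at 6.61 and 5.68 in the Control arrays of it. The other 8 arrays gave 8.31 to 9.07 for Col8a2, with a median of 8.87. Its dimmer tested probe overlapped, at 5.49 to 5.97 on the 4 arrays and 5.65 to 6.66 on the other 8.

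**Figure D1:**
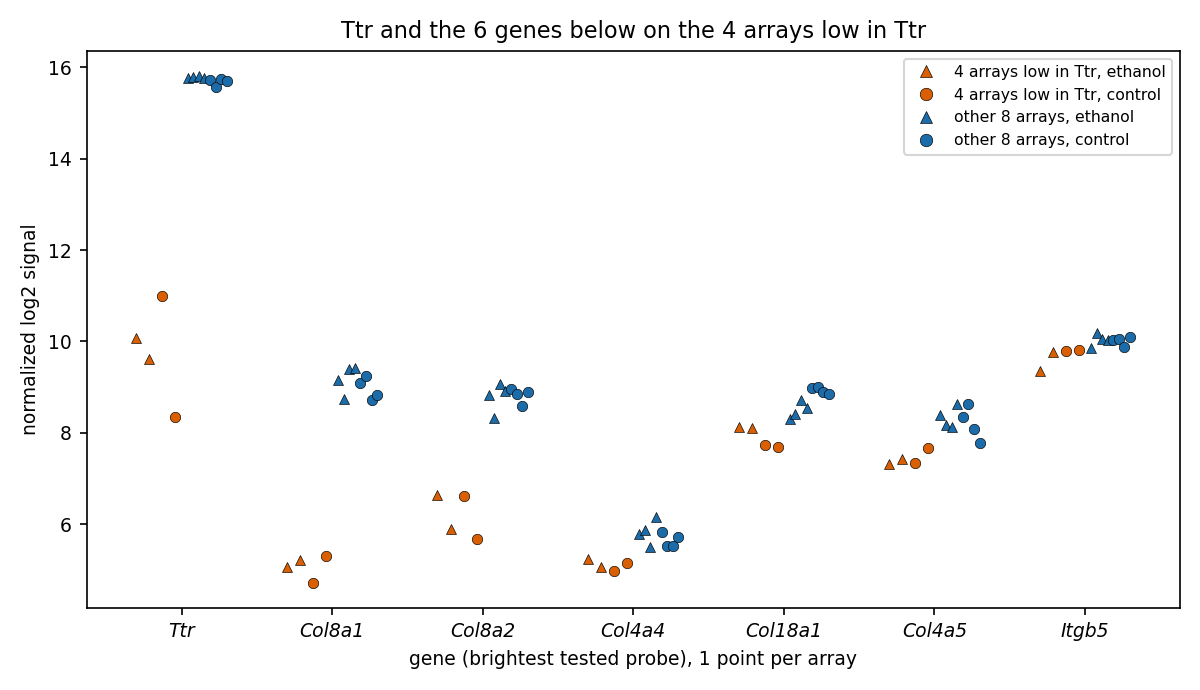
Normalized log2 signal (vertical axis) of Ttr and of the 6 genes that followed it (horizontal axis), 1 point per array; orange marks the 4 arrays low in Ttr and blue the other 8, with triangles for ethanol and circles for control. For Col8a1 the orange points lie between 4.72 and 5.30 and the blue points between 8.71 and 9.42, while for Itgb5 the sets are 0.04 apart.

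Type IV collagen divided by chain. Col4a5 had log2 signals of 7.33 and 7.43 in EtOH replicates 1 and 3 and of 7.33 and 7.66 in Control replicates 1 and 4, against 7.77 to 8.63 on the other 8 arrays with a median of 8.25. Its other tested probe overlapped narrowly, with 5.53 to 6.41 on the 4 arrays and 6.40 to 6.94 on the other 8. Col4a4, which joins the alpha 5 chain in the network of the kidney filter, was at 5.23 and 5.07 in the EtOH arrays of the low set and at 4.97 and 5.14 in the Control arrays, against 5.49 to 6.15 on the other 8. Since Col4a4 was not detected on the 4 arrays, it was at least 1.22-fold lower there by the same bound. The chains of the general network did not divide. Col4a1 ran from 10.12 to 10.40 on the 4 arrays and from 10.13 to 10.56 on the other 8, and Col4a2 from 9.80 to 10.19 and from 9.92 to 10.37.

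Col18a1 encodes a heparan sulfate-bearing collagen of basement membranes whose end fragment is endostatin. It was at 8.13 and 8.10 in EtOH replicates 1 and 3 and at 7.73 and 7.69 in Control replicates 1 and 4, against 8.30 to 9.01 on the other 8 arrays (median 8.79). Col15a1, the other collagen of its subfamily, overlapped fully, at 6.01 to 6.48 on the 4 arrays and 5.69 to 6.42 on the other 8. Itgb5, the integrin subunit that pairs with alpha v and binds vitronectin, was the 1 integrin that followed Ttr. It stood at 9.35 and 9.77 in the EtOH arrays of the low set and at 9.78 and 9.82 in the Control arrays, against 9.87 to 10.17 on the other 8. Its gap of 0.04 was the narrowest of the 6 and turned to an overlap of 0.04 when the arrays were scaled to 1 median instead of quantile normalized.

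Just outside the division lay Itgae, an integrin subunit of lymphocytes in epithelia, where the sets overlapped by 0.05 on the log2 scale, then Lama2 by 0.19, Itgb3bp by 0.21 and Itgb4 by 0.23. Col3a1, a fibrillar chain of vessel walls and meninges, was detected on 1 of the 4 arrays and 7 of the other 8, with 4.86 to 5.70 against 5.38 to 6.40. Lama5, a laminin chain of mature vessels and of epithelia, was detected on 2 of 4 and 8 of 8, with 5.21 to 6.06 against 5.78 to 6.47. In all, 37 of the 55 genes had a lower median on the 4 arrays and 18 a higher one, with a median difference of -0.11, while 45.9% of all tested probes had a lower median there and their median difference was 0.02. The largest differences the other way were those of Itga7, a laminin receptor subunit (7.24 to 7.71 on the 4 arrays, 6.90 to 7.53 on the other 8), Col7a1, the anchoring fibril collagen (6.41 to 6.78 and 5.83 to 6.55), and Itga6, another laminin receptor subunit (6.16 to 6.58 and 5.39 to 6.32). All 3 overlapped.

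**Figure D2:**
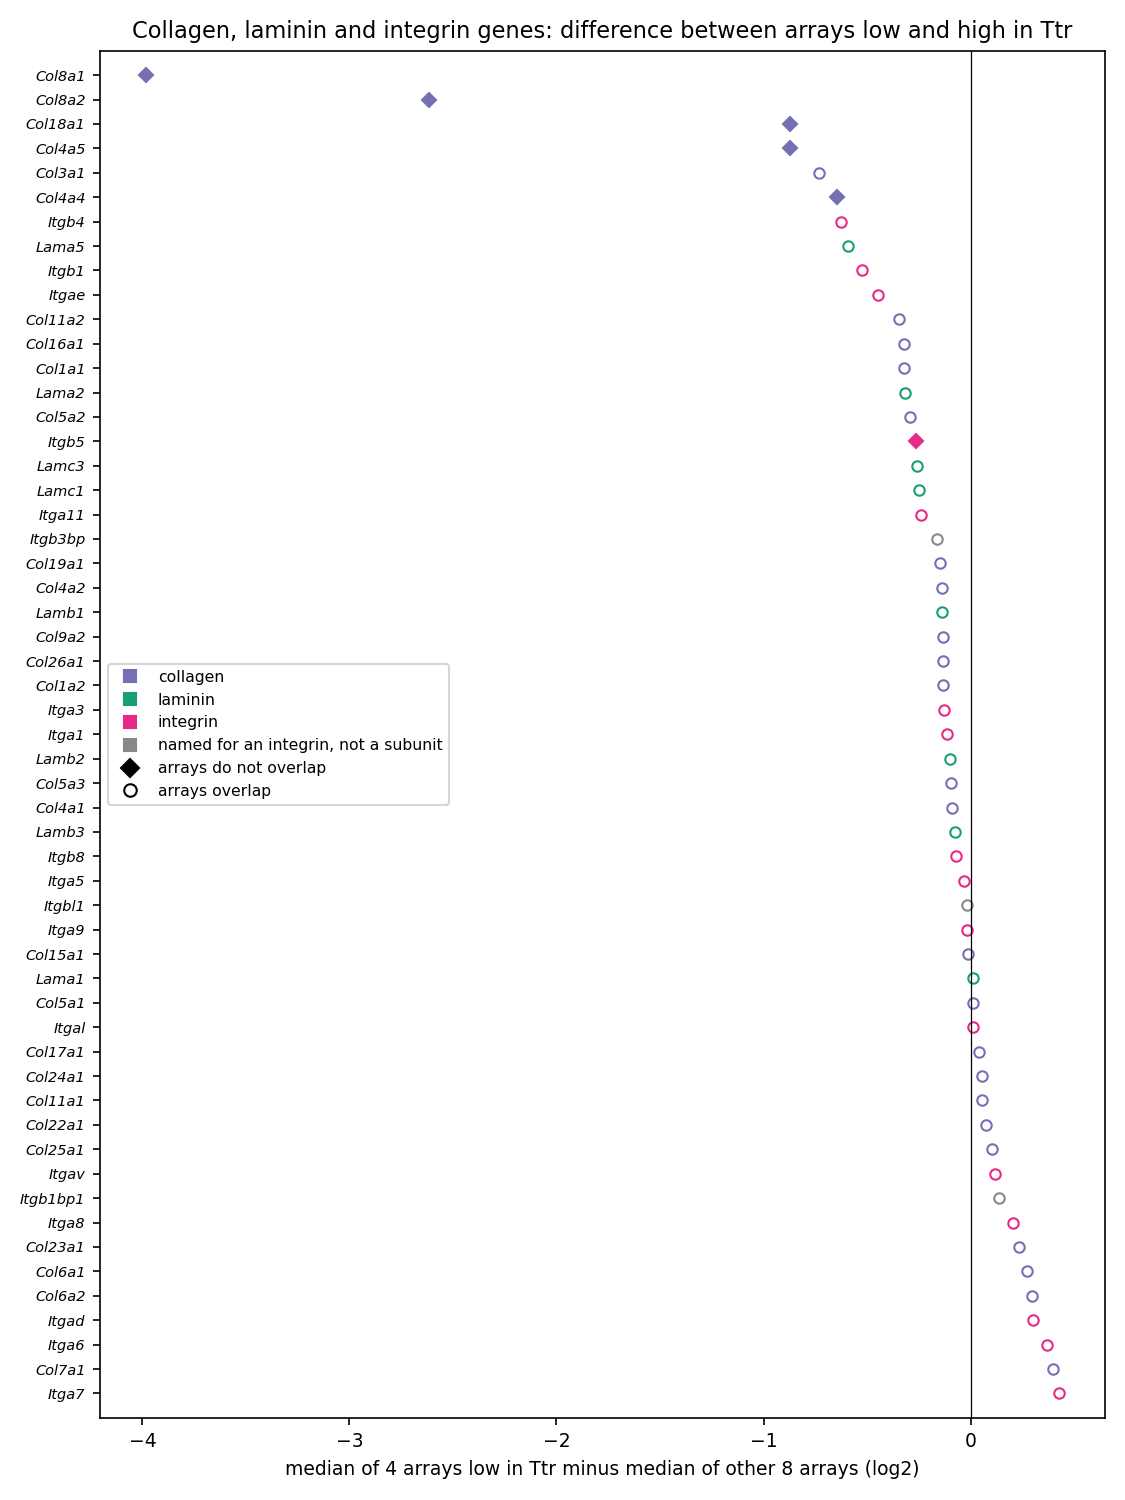
Median log2 signal on the 4 arrays low in Ttr minus the median on the other 8 (horizontal axis) for the 55 tested genes (vertical axis), coloured by family; filled diamonds mark genes whose 2 sets of arrays do not overlap. Col8a1 at -3.98 and Col8a2 at -2.61 lie far to the left of the rest, which run from -0.87 to 0.43.

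Partner genes that collagens and laminins need were read the same way, in lists of genes outside the set. Of all tested probes, 2.34% followed Ttr and 1.06% were above on all 4 arrays. Of 11 tested basement membrane partners, Nid2, a linker of laminin to type IV collagen, and Hspg2, which encodes perlecan, followed Ttr, while Pxdn, the peroxidase that crosslinks type IV collagen, was above on all 4 arrays. Nid2 ran from 5.99 to 6.85 on the 4 arrays and from 7.91 to 8.38 on the other 8. The division of Pxdn was narrow, with 5.79 to 6.13 on the 4 arrays and 5.31 to 5.77 on the other 8. Pxdn was dim and detected on 9 of 12 arrays. Of 20 collagen processing genes, 3 followed Ttr. They were Pcolce and Pcolce2, enhancers of procollagen cleavage, and Loxl1, a crosslinking oxidase. Of 12 matrix partners and turnover genes, the protease gene Mmp2 and the protease inhibitor gene Timp3 did, and of 23 integrin adhesion and signalling genes only Tns1, a tensin of focal adhesions, did.

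Markers of neighbouring cell types were set beside this division, against the same shares of all tested probes (2.34% below, 1.06% above). Of 16 tested meningeal markers, 3 followed Ttr (Ogn, Aebp1 and Bgn), and the mean of the list ran from 7.33 to 7.69 on the 4 arrays and from 7.51 to 7.94 on the other 8. None of 21 endothelial and none of 10 mural cell markers divided the arrays, with list means of 8.73 to 8.97 and 7.32 to 7.55 on the 4 arrays against 8.77 to 9.09 and 7.12 to 7.64 on the other 8. Of 16 microglial markers, Laptm5 alone divided them and was above on the 4 arrays. The part of meningeal tissue in the division of the 6 genes was not tested.

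The next question was which genes vary beside choroid plexus content with meninges, vessels or microglia. For each cell type the mean log2 signal of its tested markers, none of them a member of the set, was used as an index. Its slope was fitted per gene by limma over 12 arrays with group and Ttr as further terms. As Ttr ran only from 15.56 to 15.81 on 8 of the arrays, its term mostly separated the clusters of low and high arrays. Whether it took up finer differences in choroid plexus content among those 8 was not tested. A slope is the change in a gene's log2 signal per unit of the index. The indices spanned 0.61 log2 units between the lowest and the highest array for meninges, 0.35 for endothelium, 0.53 for mural cells and 0.36 for microglia.

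No gene of the set passed an adjusted p of 0.05 for any index, and neither did any probe of the array (0% of 21239 to 21250 probes). The lowest adjusted p by limma within the set was 0.383 for meninges, 0.926 for endothelium, 0.845 for mural cells and 0.841 for microglia. At an unadjusted p under 0.05 there were 8 of 55 genes for the meninges index, where 8.64% of all probes were past it, 5 for endothelium (5.06% of all probes), 3 for mural cells (4.08%) and 7 for microglia (5.69%). The count for microglia ran from 2 to 7 over the alternative settings. It was 2 without EtOH replicate 1, 2 without the 4 arrays low in Ttr and 3 with array weights.

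For meninges, the 3 smallest p belonged to Itga8, a receptor subunit for nephronectin, with a slope of -1.31 (95% interval -2.16 to -0.47), to Col16a1, a fibril-associated collagen, at 0.85 (0.23 to 1.48), and to Itga1, a collagen receptor subunit, at 1.42 (0.33 to 2.51). Col16a1 ran from 8.79 to 9.32 in EtOH arrays, with a median of 9.09, and from 8.83 to 9.39 in Control arrays, also with a median of 9.09. For endothelium they belonged to Col4a2, the type IV chain of vessel basement membranes, at 1.08 (0.25 to 1.91), to Lamc3, a laminin gamma chain, at 1.87 (0.37 to 3.38), and to Col22a1, a collagen of tissue junctions, at 1.29 (0.24 to 2.35). For mural cells, the pericytes and smooth muscle of vessels, Lamc3 had a slope of 1.69 (0.83 to 2.55), Itga1 of 1.48 (0.39 to 2.57) and Col19a1, a fibril-associated collagen, of -1.31 (-2.58 to -0.05). The probe of Itga1 was detected on 8 of 12 arrays. EtOH replicate 5 gave its highest signal, 6.32, with the next array at 5.79. That array was also the highest for the meninges index (7.94) and for the mural cell index (7.64). For microglia Itgad, a leukocyte integrin subunit, had a slope of -2.83 (-4.80 to -0.86), Col3a1 of 2.10 (0.51 to 3.70) and Itgb5 of 1.19 (0.28 to 2.10). None of these 12 slopes passed the test, and the indices share arrays and terms, so they are not independent of each other.

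Fibrillar chains of meninges and vessel walls overlapped between the groups. Col1a1 ran from 5.60 to 7.04 in EtOH arrays (median 6.70) and from 6.50 to 7.27 in Control arrays (median 6.90). Col1a2, the other type I chain, ran from 6.15 to 6.48 in EtOH and from 5.90 to 6.63 in Control. Col5a1, which joins type I fibrils, ran from 8.25 to 8.55 in EtOH and from 8.01 to 8.65 in Control. Over all 12 arrays, the SD of the log2 signal was largest for Col8a1 (1.98), Col8a2 (1.32), Itgad (0.54), Col4a5 (0.48), Col3a1 (0.47), Itgb1 (0.47), Col18a1 (0.47) and Col1a1 (0.42). Of these 8, 4 followed Ttr.

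**Figure D3:**
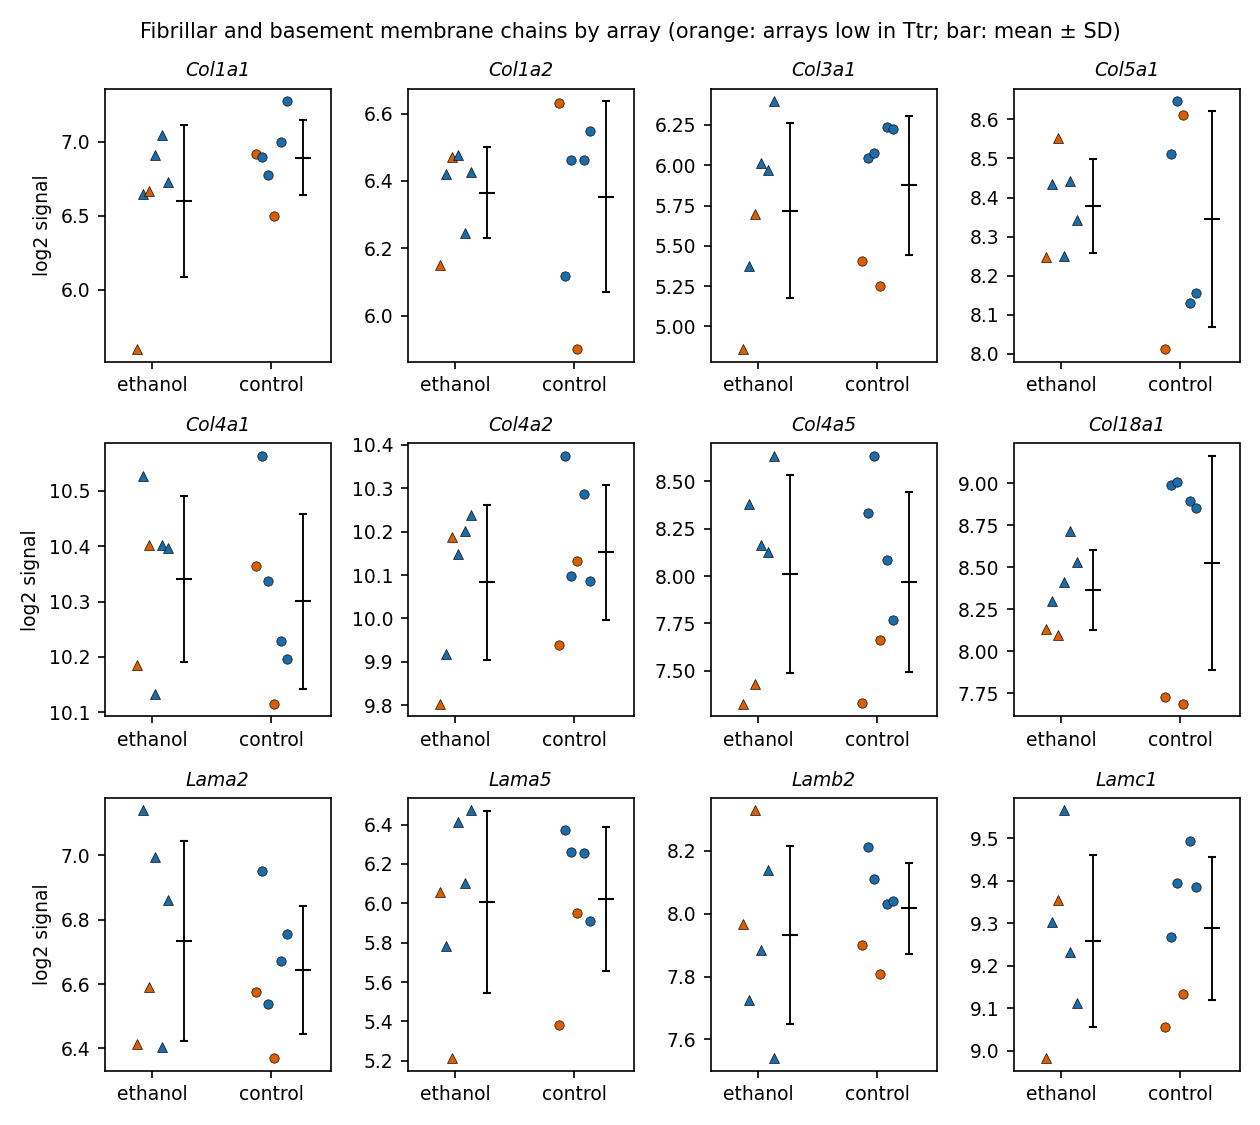
Normalized log2 signal (vertical axis, scaled per panel and not from 0) of 12 collagen and laminin chains in ethanol (triangles, left) and control (circles, right) arrays, with mean ± SD (n = 6 each) and the 4 arrays low in Ttr in orange. For Col4a5 and Col18a1 all orange points lie below the blue ones, and for Col4a1, Col4a2 and the laminins the colours mix.

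None of the 8 tested laminin chains followed Ttr, where the 2.34% of all probes would give less than 1. Their medians on the 4 arrays low in Ttr were lower for 7 of the 8, as were those of 45.9% of all tested probes, without a test. The differences were -0.59 for Lama5, -0.31 for Lama2, -0.26 for Lamc3, -0.25 for Lamc1 and -0.07 to -0.14 for Lamb1, Lamb2 and Lamb3. Lama1 differed by 0.01. Lamc1, the gamma chain of most laminins, ran from 8.98 to 9.57 in EtOH arrays and from 9.06 to 9.49 in Control arrays. Lamb2, the beta chain of vessel and synaptic laminins, ran from 7.54 to 8.33 in EtOH and from 7.81 to 8.21 in Control. Lama1, the alpha chain of the pial surface, ran from 6.55 to 7.14 in EtOH and from 6.55 to 7.15 in Control. Lama2, the alpha chain that astrocytes and muscle use, ran from 6.40 to 7.14 in EtOH and from 6.37 to 6.95 in Control. The ranges of the groups overlapped for each chain.

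Ethanol exposure was compared with control over all 12 arrays. No gene of the set passed an adjusted p of 0.05 by limma, as was the case for all 21263 tested probes (0%), and the lowest adjusted p was 0.993 within the set and 0.731 over all probes. At an unadjusted p under 0.05 there were 4 of 55 genes, 3 higher and 1 lower in ethanol, and 5 of 75 probes, where 4.81% of all probes were past it (2.45% higher, 2.35% lower). In 0 of 55 genes did the groups not overlap, against 0.202% of all probes. Of the 55 genes 33 were higher and 22 lower in ethanol, with a median difference of 0.02, against 0.00 over all tested probes. For 52 of them the 95% interval of the difference lay within 1 log2 unit of 0. The 3 exceptions were Col8a1 (0.19, interval -2.01 to 2.38), Col8a2 (0.01, -1.45 to 1.47) and Itgad. For the type VIII chains each group held 2 arrays low in Ttr, and the interval spans that division.

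**Figure D4:**
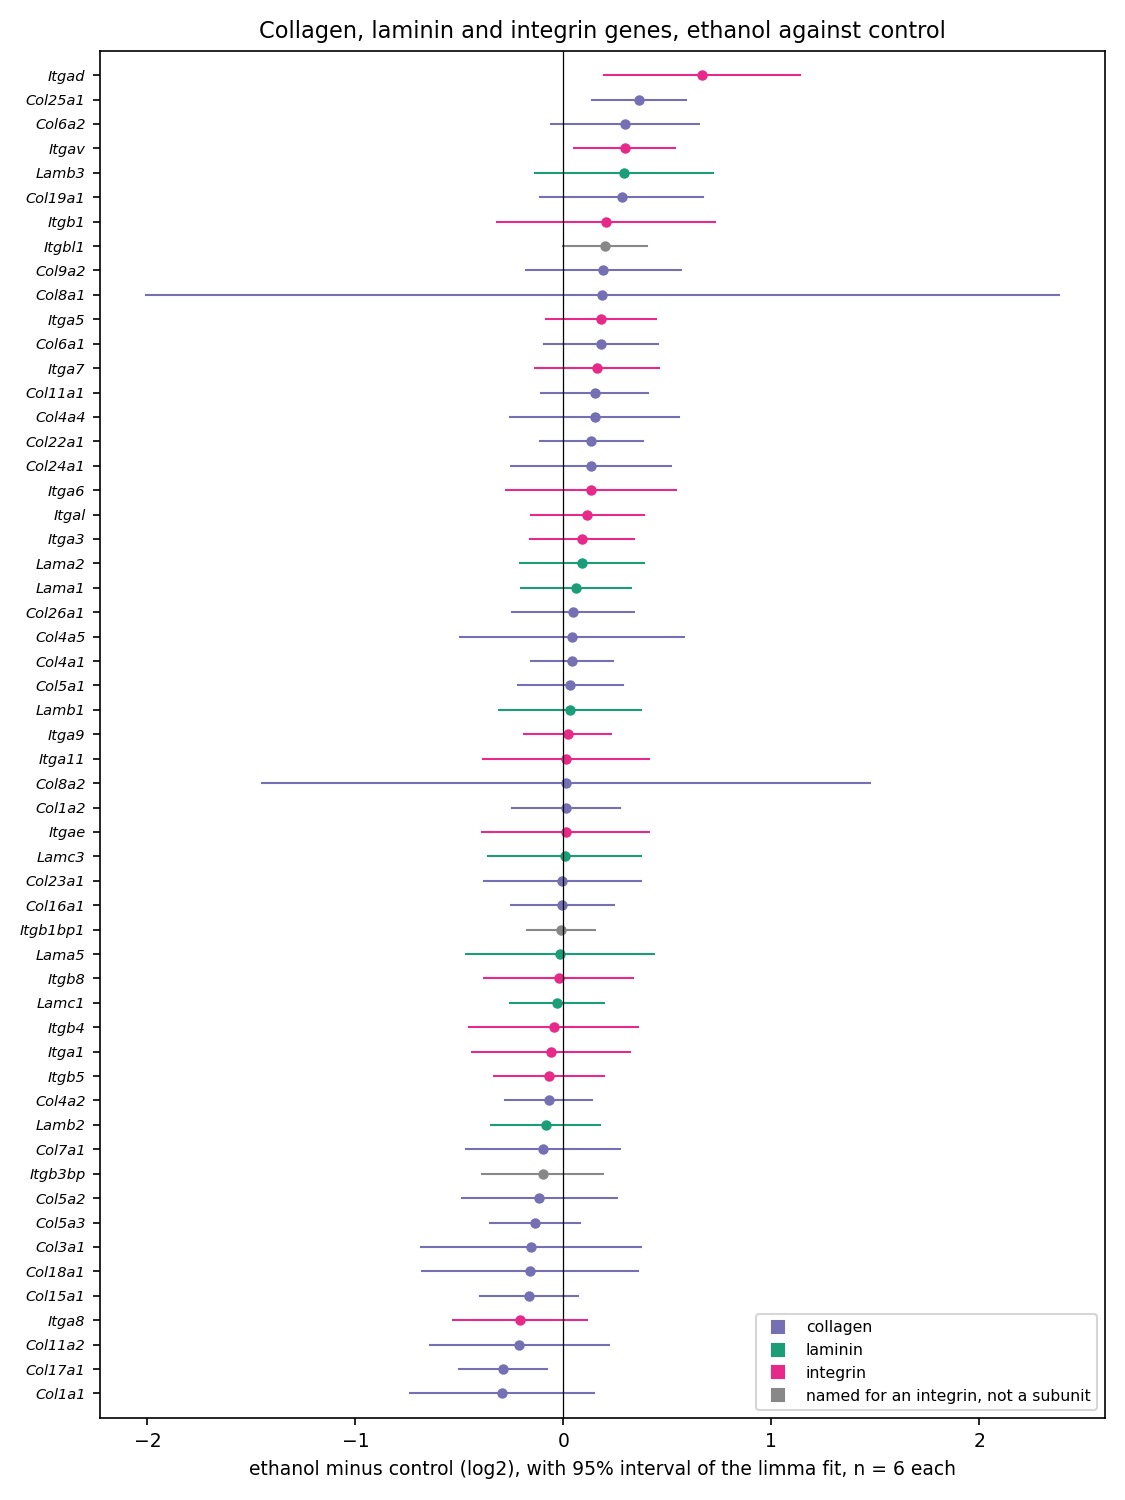
Ethanol minus control on the log2 scale (horizontal axis) with the 95% interval of the limma fit (bars, n = 6 each) for the 55 tested genes (vertical axis), coloured by family. The points run from -0.29 for Col1a1 to 0.67 for Itgad, and the widest bars are those of Col8a1 and Col8a2.

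The smallest p on the higher side belonged to Col25a1, a membrane-spanning collagen of neurons whose shed part is found in amyloid plaques. It had a lowest, median and highest log2 signal of 5.63, 5.76 and 6.14 in ethanol arrays and of 5.18, 5.46 and 5.65 in control arrays, and 5 of 6 ethanol arrays were above every control array. The difference was 0.37 (95% interval 0.14 to 0.59, adjusted p = 0.993 by limma), and the means were 5.81 ± 0.17 for ethanol and 5.44 ± 0.20 for control arrays (SD, n = 6). This probe lies near the detection limit, detected on 6 ethanol and 3 control arrays. The 3 other tested probes of Col25a1 gave -0.00, -0.24 and 0.09.

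Itgad, whose subunit pairs with the beta chain of leukocyte integrins, had 5.75, 6.49 and 7.34 in ethanol arrays and 5.64, 5.94 and 6.23 in control arrays. Apart from EtOH replicate 6, the ethanol arrays were above every control array. The difference was 0.67 (0.19 to 1.14, adjusted p = 0.997 by limma), 0.87 on beadchip 1 and 0.47 on beadchip 2. Its other tested probes gave 0.32 and 0.09. Of the microglial markers, 13 of 16 were lower in ethanol, and their mean ran from 8.77 to 9.09 in ethanol and from 8.98 to 9.13 in control. EtOH replicate 1 had both the highest Itgad signal and the lowest mean of microglial markers. The partner subunit gene Itgb2 was detected on 1 of 12 arrays.

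Itgav, the alpha v subunit that binds RGD proteins, had 6.86, 7.05 and 7.20 in ethanol arrays and 6.28, 6.84 and 6.97 in control arrays. The difference was 0.30 (0.05 to 0.54) and did not pass the test, and its other tested probes gave 0.12 and -0.01. Next came Itgbl1, a secreted protein with integrin-like repeats, at 0.20 (other probe 0.08), Col6a2, a chain of beaded microfibrils, at 0.30 and Col19a1, which hippocampal interneurons express in the mouse, at 0.28. Without the 4 arrays low in Ttr the difference of Col6a2 was 0.04. None of these passed the test.

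On the lower side the smallest p of a brightest probe belonged to Col17a1, the membrane-spanning collagen of hemidesmosomes. It had 5.13, 5.32 and 5.62 in ethanol arrays and 5.45, 5.64 and 5.85 in control arrays, and 4 of the 6 ethanol values were under the lowest control value. The difference was -0.29 (-0.50 to -0.08) and did not pass the test, and this probe was detected on 2 ethanol and 5 control arrays. Only 1 of the 3 probes of Col17a1 was tested. An untested probe, detected on 3 ethanol and 1 control arrays, ran from 4.57 to 6.09 in ethanol and from 4.84 to 5.50 in control. Col1a1 differed by -0.29 (-0.74 to 0.15), of which -0.09 was left without EtOH replicate 1. Col15a1 at -0.16, Itga8 at -0.21, Col5a3 at -0.14 and Col11a2, a minor fibrillar chain, at -0.21 had intervals that held 0. A single array moved each of these by over 1.5 times. Col15a1 was at -0.08 without EtOH replicate 4 and Itga8 at -0.13 without EtOH replicate 5. Col11a2 was at -0.11 without Control replicate 6 and Col5a3 at -0.08 without EtOH replicate 2. Without the 4 arrays low in Ttr, Itga8 differed by -0.03.

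The smallest p of all 75 tested probes belonged to the dimmer probe of Itgb1, the beta subunit that most matrix-binding integrins share, named here after its values were seen. This probe had a lowest, median and highest log2 signal of 5.10, 5.55 and 5.93 in ethanol arrays and of 5.88, 6.11 and 6.15 in control arrays. All ethanol arrays but replicate 1 were below every control array. The difference was -0.48 (95% interval -0.75 to -0.22, adjusted p = 0.993 by limma), -0.40 on beadchip 1 and -0.57 on beadchip 2, and did not pass the test. The brighter probe of Itgb1 ran the other way, with 5.91, 6.41 and 6.66 in ethanol arrays and 5.03, 6.28 and 6.80 in control arrays, a difference of 0.20 (-0.32 to 0.73) that was -0.01 without Control replicate 1. The probes of Itgb1 therefore disagree in direction, and no direction is given for the gene.

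**Figure D5:**
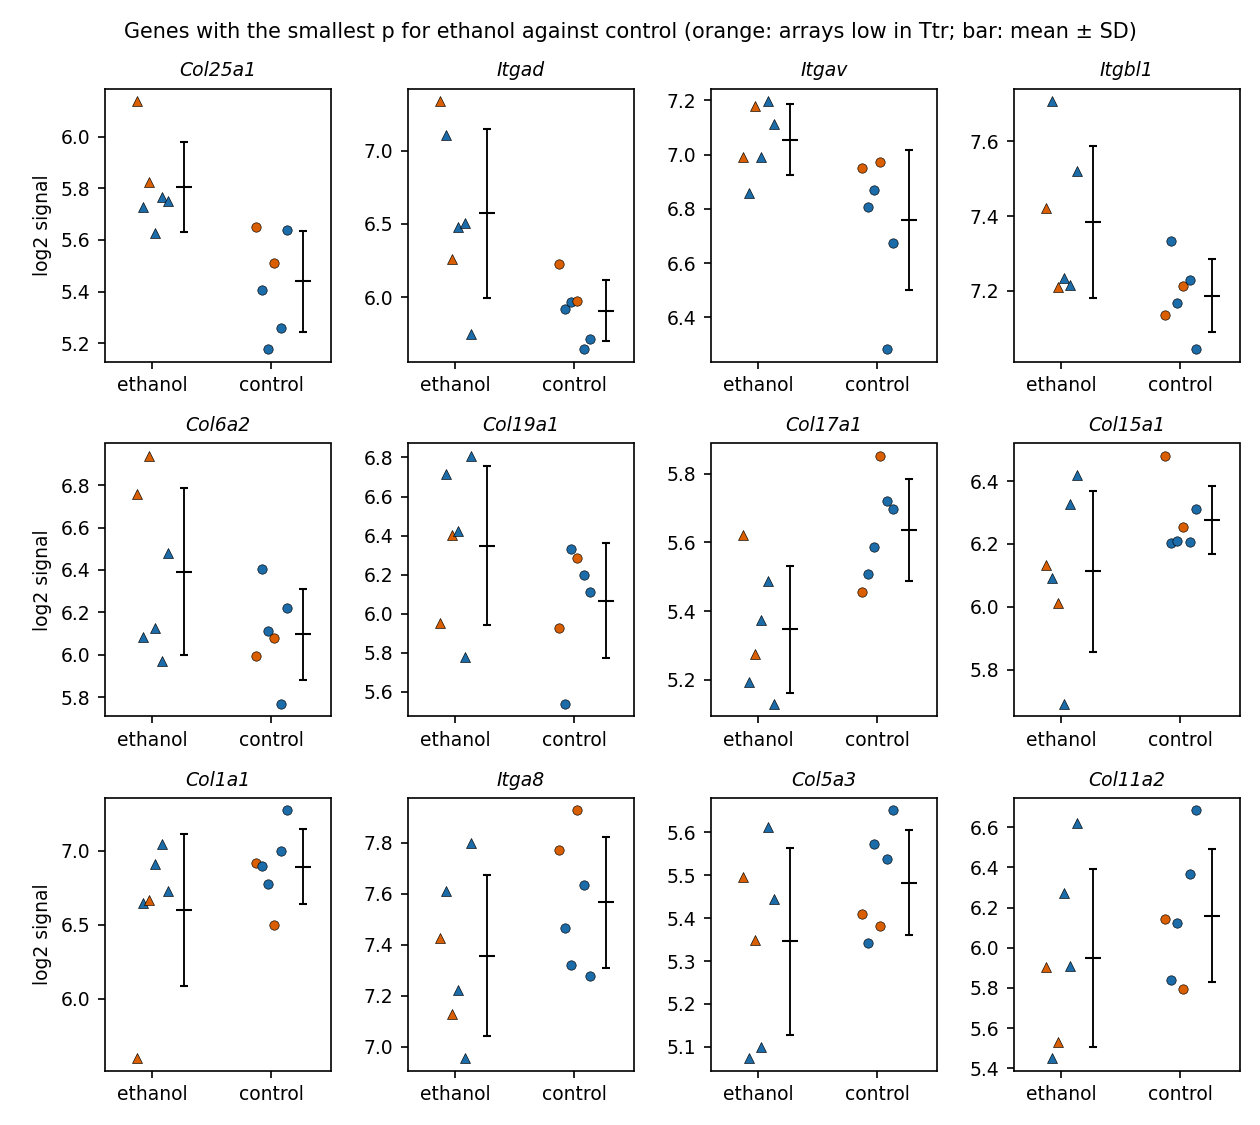
Normalized log2 signal (vertical axis, scaled per panel and not from 0) of the 12 genes whose brightest probes had the smallest p, 6 in each direction, in ethanol (triangles, left) and control (circles, right) arrays, with mean ± SD (n = 6 each) and the 4 arrays low in Ttr in orange. The groups overlap in every panel, and in Col1a1 a single ethanol array at 5.60 lies far below the rest.

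By role, differences lay on both sides of 0. Of 9 tested fibrillar chains 4 were higher and 5 lower in ethanol (median difference -0.12), of 8 laminins 5 were higher and 3 lower (0.02), and of 4 type IV chains 3 were higher and 1 lower (0.04). The laminin receptor subunits Itga3, Itga6 and Itga7 differed by 0.09, 0.13 and 0.16, none past the test. Without the 4 arrays low in Ttr they differed by -0.02, -0.00 and 0.15. Itga6 was at 0.59 on beadchip 1 and -0.33 on beadchip 2, and Itga3 was at 0.01 without Control replicate 1. The 3 tested leukocyte subunits differed by 0.01 to 0.67, none past the test. Within beadchip 1 the median of the 55 differences was -0.06 and within beadchip 2 it was 0.10.

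Among the 8 arrays high in Ttr, 4 per group, Col18a1 gave a pattern chosen after its values were seen. All 4 ethanol arrays, at 8.30 to 8.72, lay below all 4 control arrays, at 8.85 to 9.01, and the difference was -0.45 (95% interval -0.67 to -0.22, adjusted p = 0.711 by limma). On the 4 arrays low in Ttr the order was the opposite, with 8.13 and 8.10 in ethanol and 7.73 and 7.69 in control. Over all 12 arrays the difference of Col18a1 was -0.16 (-0.68 to 0.36). Within those 8 arrays 2 of 55 genes, Col17a1 and Col18a1, had ethanol wholly below control, against 1.67% of all probes, and 0 genes had it wholly above, against 1.36%. Whether the ethanol difference of Col18a1 depends on Ttr was not tested.

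The lists of partner genes gave no call between ethanol and control, 0 past an adjusted p of 0.05 by limma in each. Of 11 basement membrane partners 7 were higher and 4 lower, with Fras1, a matrix protein of epithelial basement membranes, at -0.37 (95% interval -0.62 to -0.11) and Tinagl1 at -0.42 (-0.79 to -0.05). Of 20 collagen processing genes 9 were higher and 11 lower, and Serpinh1, the chaperone of procollagen, differed by -0.42 (-0.85 to 0.01). Of 12 matrix partners and turnover genes 8 were higher and 4 lower, and Tnc, which encodes tenascin C, differed by -0.55 (-0.90 to -0.21). Of 23 integrin adhesion and signalling genes 11 were higher and 12 lower, and Fermt2, the kindlin that activates integrins, differed by -0.18 (-0.34 to -0.02). Red cell genes, which mark blood left in the vessels, were lower in ethanol for 6 of 6 tested markers. Their differences ran from -0.96 for Slc4a1 to -0.01 for Bpgm. Of the 6, 5 had an unadjusted p under 0.05 by limma, against 4.81% of all probes, and 0 passed the test. List means ran from 9.12 to 9.91 in ethanol and from 9.50 to 10.23 in control. The part of blood content in the differences of vessel genes was not tested.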

How the data were processed

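Gene expression was measured on Illumina mouse bead arrays, 12 arrays with 6 per group. GenomeStudio 1.9.0 is the tool in the submitters' processing notes, which give no settings here. The deposited scanner table holds a linear bead intensity per probe and array, not normalized between arrays and without background subtraction, and a detection p-value beside it, per the file headers. A further deposited table holds the authors' processed intensities, with the same median in every column, and was used as an alternative. From the scanner values, limma 3.58.1 in R 4.3.3 (statmod 1.5.0) gave the normexp correction from detection p-values (offset 16), quantile normalization and log2. The offset draws differences of dim probes towards 0. Probes detected (p-value under 0.05) on at least 6 arrays were fitted with lmFit and eBayes, adjusted by Benjamini-Hochberg over all tested probes. The number of arrays and, near the detection limit, dim signal limit the precision.

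Genes were named from the platform annotation with symbols updated through RefSeq: 18064 tested probes had 1 gene, 9 several and 3190 none. Arrays were compared by pair, with correlations of 0.981 to 0.993, and none was a copy of another. Replicate numbers did not pair the arrays (correlations of deviations from -0.25 to 0.33). Members, lists, the division by Ttr and the tests were chosen with earlier results of these data known. Named were up to 6 genes per direction by p for ethanol, the genes divided by Ttr, the 3 smallest p per index, the 8 largest SDs and chains by role; other names were chosen after their values were seen. Fits were tested on simulated data with noise drawn independently per probe, at an adjusted p under 0.05 by limma. Of probes changed between the groups, 50.2% were recovered at 0.5 log2 units and 95.4% at 1. For the meninges index, 6% of probes with a slope of 1 and 84% of those with a slope of 3 were recovered. Alternatives changed background, offset, normalization, filter, source table, blocks, weights, Ttr terms and single arrays.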

Additional observations from a re-analysis of the deposited data

Results flagged for a closer look

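In 5 of 110 groups of 6 arrays a single array lay far from the other 5 by Dixon's test at 95%, where chance gives about 1 in 20. Col1a1 was at 5.60 in EtOH replicate 1, with the nearest ethanol array at 6.65. Col11a1, a minor fibrillar chain, was at 5.61 in EtOH replicate 2, with the nearest at 5.45. Itgal, a leukocyte integrin subunit, was at 6.23 in EtOH replicate 6, with the nearest at 5.76. Col9a2, a cartilage-type fibril-associated chain, was at 6.33 in Control replicate 1, with the nearest at 7.04. Col7a1 was at 5.97 in Control replicate 2, with the nearest at 6.34. EtOH replicate 1 and Control replicate 1 are among the arrays low in Ttr, and the part of that in these values was not tested.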

How the results depend on the processing

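Under all alternatives run, 0 genes of the set passed the threshold for ethanol or for any index. The number of genes below on the 4 arrays low in Ttr was 6 with the background, offset and source table alternatives, 5 with scaling to a common median and 6 to 7 with single arrays left out. Without EtOH replicate 2 Col3a1 joined them, without Control replicates 1, 3 and 5 Itgb4, Itgb1 and Itgae did, and without Control replicate 4 or 6 a single gene was above. The gap of Col8a1 was 1.77 without background subtraction and with the authors' table and 2.62 with an offset of 50, and that of Col8a2 0.99 and 1.40. The gap of Col4a4 was 0.08 without background subtraction, and that of Col4a5 0.01 with scaling to a common median. The gap of Col4a5 was 0.42 without Control replicate 6, and that of Col8a2 1.95 without EtOH replicate 4.

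With scaling to a common median the median difference was 0.05 over all probes and 0.06 over the set, and 942 probes were higher and 256 lower at an unadjusted p under 0.05. Leaving out the detection filter gave 2087 probes at that threshold, but of 45281, where the main fit gave 1022 of 21263. Ethanol differences were smaller without background subtraction, at 0.12 for Col25a1, 0.28 for Itgad, 0.14 for Itgav and -0.09 for Col17a1. For the meninges index 18 probes of the whole array, none in the set, passed without background subtraction and with the authors' table. With the replicate number as a block (replicate block) 0 genes of the set passed for ethanol, their median difference was 0.02 and 1078 probes had an unadjusted p under 0.05. The block changed no other call. The beadchip block and array weights likewise gave 0 calls in the set. Differences of dim probes depend on the background and offset chosen.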
